A study of Rattus norvegicus with 26 samples.

Results

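The comparison described here set remnant rat livers after removal of about 2/3 of the organ (2/3 PH, partial hepatectomy) against remnant livers after removal of the left lateral lobe alone (1/3 PH, 30% of the liver mass). It covered hours before the peak of DNA synthesis that follows the larger operation. The study places the start of that synthesis at 12 hours and its peak at 24 hours, so the arrays at 12 hours stand at its start. It used the 11 of 26 arrays that the sample titles place at 6 or 12 hours: 2 arrays of 1/3 PH and 3 of 2/3 PH at 6 hours, and 3 of each operation at 12 hours. Of the 677 rat miRNAs on the array, 183 were called detected on at least 1 of these arrays, and the 124 with a detection call on all arrays of 1 or more of the 4 groups were tested. The question was whether miRNA levels in the remnant already differed between an operation that drives hepatocytes into S phase and one that causes little replication.

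All groups were male Sprague-Dawley rats without genetic modification, and the age was not stated. The right lobes were taken in a morning window after either operation, 1 rat to an array, and the normal livers, which 1 label calls sham, carry no hour. For 2 of the 2/3 PH arrays at 12 hours the source labels give a slightly later hour than the titles, which were used. The study left out 1 array of 1/3 PH for poor quality, which is not analysed here. Because each array held RNA of a whole piece of liver, fewer cells of a type and less of a miRNA per cell cannot be told apart.

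After hepatectomy the remaining hepatocytes leave quiescence, pass through a priming phase under cytokine signals such as IL-6 and NF-kB activity, and then progress through G1 into S phase under growth factors. miRNAs are short RNAs that lower the stability and translation of mRNAs, which they recognise mainly through the seed, bases 2 to 8 from their 5′ end. miRNAs that share a seed share many targets, so families such as miR-17, miR-93 and miR-106b, which restrain cell cycle inhibitors, and miR-15, miR-16, miR-195 and miR-497, which restrain cyclins and cyclin-dependent kinases, are usually read together.

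The mature sequences of the miRNAs on which the results turn are given first, with the seed in capitals, from RefSeq on the GRCr8 rat assembly. miR-146a led the comparison of the operations, 5 miRNAs of the AAAGUGC seed were called for a change of the operation difference at later hours. miR-378 was called between 12 and 6 hours, and its other arm and the AGCAGCA pair miR-195 and miR-497 were called there without the low-signal array described below.
miR-146a: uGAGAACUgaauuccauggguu
miR-93: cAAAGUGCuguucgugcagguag
miR-106b: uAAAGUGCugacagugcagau
miR-17-5p: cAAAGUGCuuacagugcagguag
miR-20a: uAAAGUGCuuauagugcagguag
miR-20b-5p: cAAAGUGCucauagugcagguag
miR-378: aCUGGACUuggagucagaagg
miR-378*: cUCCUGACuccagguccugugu
miR-195: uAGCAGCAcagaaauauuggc
miR-497: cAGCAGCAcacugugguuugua

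The gene of miR-146a lies on the minus strand at chr10:28350053-28350074 (GRCr8), outside the span of any protein-coding gene in the annotation table. miR-93 (chr12:22156894-22156916, minus strand) and miR-106b lie 186 bases apart within the span of Mcm7, a subunit of the replicative helicase. The arms of miR-378 (chr18:57128925-57128945 and chr18:57128962-57128983, minus strand) lie within the span of Ppargc1b, a transcriptional coactivator of mitochondrial genes. miR-195 (chr10:55450509-55450529, plus strand) and miR-497 lie 315 bases apart. Of 19 miRNAs looked up, 16 had a RefSeq entry, and miR-151, miR-200b and miR-429 are given by name.

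The arrays were of like depth except 1. The array titled m5m, in the 1/3 PH 12 h group, had 91 miRNAs detected against 118 to 155 on the other 10, and a summed signal of detected miRNAs of 11767.7 units against 39858.3 to 58292.8. Of the 124 tested miRNAs, 34 were not detected on it and 41 stood at its floor, the lowest signal it could resolve, which lay at 4.60 on the log2 scale against 2.96 to 4.33 on the other arrays. Counts of calls are therefore given with and without this array, and so are the estimates of families and miRNAs that it moved. Leaving it out gave the operation difference the other sign for 29 of the 124 miRNAs, with either value at most 0.26 in size on the log2 scale. The livers carried the hepatocyte miRNAs: 8 of the 9 hepatocyte-enriched miRNAs on the array were detected, among them miR-122, the hallmark hepatocyte miRNA, and their summed signal ranged from 42065 to 47756 units after 1/3 PH and from 40672 to 46795 after 2/3 PH. None of 6 muscle miRNAs and none of 5 pancreatic and neural miRNAs was detected on any of the 11 arrays.

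No miRNA passed the test between 2/3 PH and 1/3 PH at 6 and 12 hours. With time as a covariate, limma with Benjamini-Hochberg adjustment called 0 of 124 miRNAs (0% of those tested), and the smallest adjusted p was 0.976. At an unadjusted p under 0.05 there were 2 (1.61%), miR-146a higher and miR-93 lower after 2/3 PH. Without m5m, 0 of 132 miRNAs were called and 7 (5.3%) had an unadjusted p under 0.05, 1 higher and 6 lower after 2/3 PH. Within the 8 arrays of the first scan day, 2 in each group, limma called 0 of 133 and 11 (8.27%) were under 0.05 unadjusted.

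The differences were small, and more estimates were lower than higher after 2/3 PH. After 2/3 PH, 55 miRNAs had a higher estimate and 69 a lower one, with a median difference of -0.02 and a median absolute difference of 0.09 on the log2 scale. Without m5m 46 of the same miRNAs had a higher estimate and 78 a lower one, and the median was -0.05. By the study's fold limits of 0.8 and 1.2, 13 of the 124 (10.5%) lay outside, 1 above and 12 below, and without m5m 10 did (8.06%). The median standard error was 0.15, and it ranged from 0.08 to 0.67 between miRNAs.

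The intervals show how large a difference these arrays left room for. The 95% interval of the operation difference lay within 2-fold either way for 111 of the 124 miRNAs (89.5%) and within 1.5-fold for 82 (66.1%). Without m5m the counts were 114 of 132 (86.4%) and 89 (67.4%). Among the 13 with wider intervals were miR-702-3p, from -2.32 to 0.17 on the log2 scale, and miR-451, from -1.25 to 0.49.

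**Figure D1:**
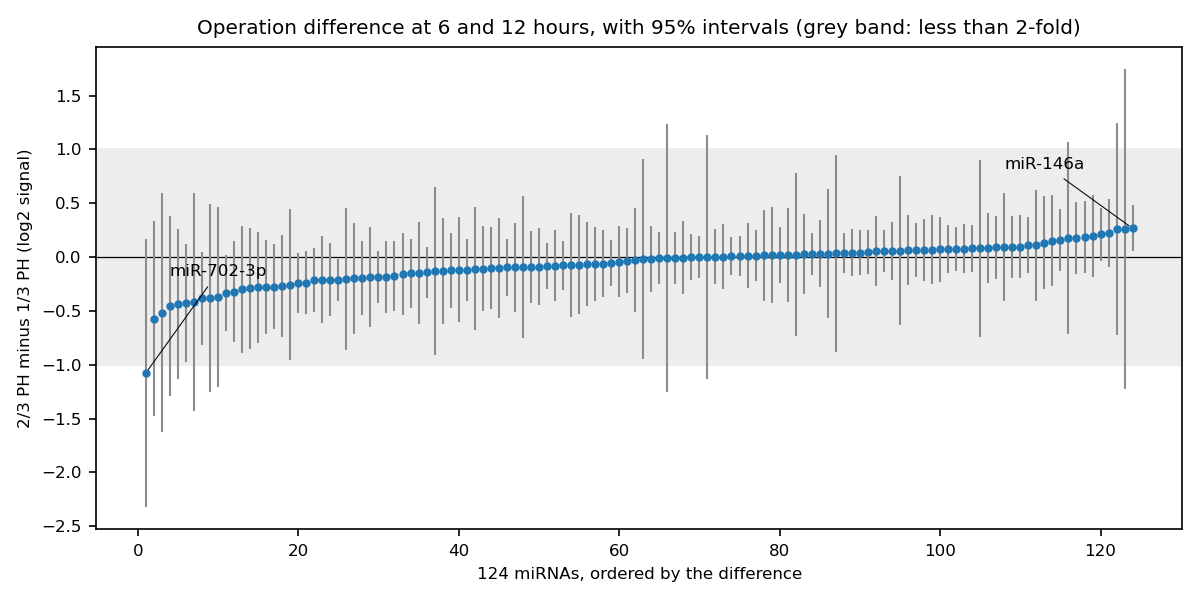
Operation difference at 6 and 12 hours for the 124 tested miRNAs, ordered by size. The y axis is the log2 signal of 2/3 PH minus 1/3 PH with time as a covariate, points are the limma estimates, bars their 95% intervals, and the grey band spans less than 2-fold either way. Of the 124 intervals, 111 lie within the band, and the ends of the order are miR-702-3p at -1.08 and miR-146a at 0.27.

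miR-146a, which NF-kB induces and which dampens signalling through IRAK1 and TRAF6, had the smallest p. Its log2 signal at 6 hours was 6.14 and 6.37 on the 1/3 PH arrays and 6.65, 6.63 and 6.51 on the 2/3 PH arrays. At 12 hours it was 6.46, 6.22 and 6.39 after 1/3 PH and 6.47, 6.73 and 6.49 after 2/3 PH. Every 2/3 PH array thus lay above every 1/3 PH array of its time, though at 12 hours the nearest pair, 6.47 and 6.46, almost met. The difference was 0.27 (SE 0.10, 95% interval 0.05 to 0.48, a fold of 1.2), with an unadjusted p of 0.0191 and an adjusted p of 0.976 in limma.

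Of the 124 miRNAs, miR-146a alone (0.806%) separated the operations the same way at both times. Groups of 2 or 3 arrays can separate by chance, and how often was not tested. At 6 hours, where 2 arrays stood against 3, the operations did not overlap for 26 miRNAs (21%), and at 12 hours for 8 (6.45%), or 17 (13.7%) without m5m. Without m5m the miR-146a difference was 0.24 with an unadjusted limma p of 0.0257, and on the first scan day it was 0.28. Within the slide that held both operations at 6 hours, 2 arrays of each, it was 0.39. Within the slide of the first scan day that held both at 12 hours it was 0.21, with 2 arrays of 2/3 PH set against 1 of 1/3 PH. These values come from subsets of the arrays that ranked miR-146a first, so they are not separate evidence. In normal liver the log2 signal of miR-146a was 6.29 ± 0.17 (SD, n = 3), within the range of the 1/3 PH arrays. At 24 and 36 hours the estimates had the opposite sign, -0.18 (SE 0.19) and -0.39 (SE 0.19), and neither passed the test (adjusted limma p of 0.827 and 0.186).

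miR-93, which restrains the cell cycle inhibitor p21, was the only other miRNA under 0.05 unadjusted. Its log2 signal at 6 hours was 4.45 and 4.72 after 1/3 PH and 4.47, 4.33 and 4.23 after 2/3 PH. At 12 hours it was 4.59, 4.60 and 4.74 against 4.44, 4.43 and 4.50. The value 4.33 is the floor of its array, where miR-93 was still called detected. The value 4.60 is the floor of m5m, where miR-93 was not detected. The operations overlapped at 6 hours and not at 12, and the estimate was lower after 2/3 PH, by a log2 difference of -0.21 (SE 0.09, 95% interval -0.41 to -0.01). Its unadjusted p was 0.0383 and its adjusted p 0.976 in limma, and without m5m the difference was -0.22. The deposited table of normalized log2 values turned the sign of miR-93, to 1.05, and of miR-210, to 1.12, also without passing the test (adjusted limma p of 0.819 for both).

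The other 6 of the 8 miRNAs with the smallest p also failed the adjustment, each with an adjusted limma p of 0.976. miR-210, a target of hypoxia-inducible factor, had a difference of -0.33 (SE 0.16), or -0.25 without m5m, where it was not detected. miR-429, a miR-200 family member that restrains the ZEB factors in epithelia, had a difference of -0.38 (SE 0.20), or -0.35 without m5m. At 6 hours it stood at the floor on 4 of the 5 arrays and was not detected on 3, so the floors set part of that value. miR-107, which lies in a pantothenate kinase gene and acts in lipid and glucose metabolism, had the only other higher estimate, 0.21 (SE 0.11), and it was 0.13 without m5m, the array with its lowest value.

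miR-27a and miR-140 had estimates of -0.24 (SE 0.13) each, and both were -0.16 without m5m, which held the highest value of either. miR-702-3p had the largest estimate of all, -1.08 with an SE of 0.56, or -0.99 without m5m. The second 1/3 PH array of 6 hours lay at 7.36, and without it the estimate was -0.48, while the other 10 arrays ran from 3.11 to 5.60, and it was not detected on 2 of the 2/3 PH arrays.

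**Figure D2:**
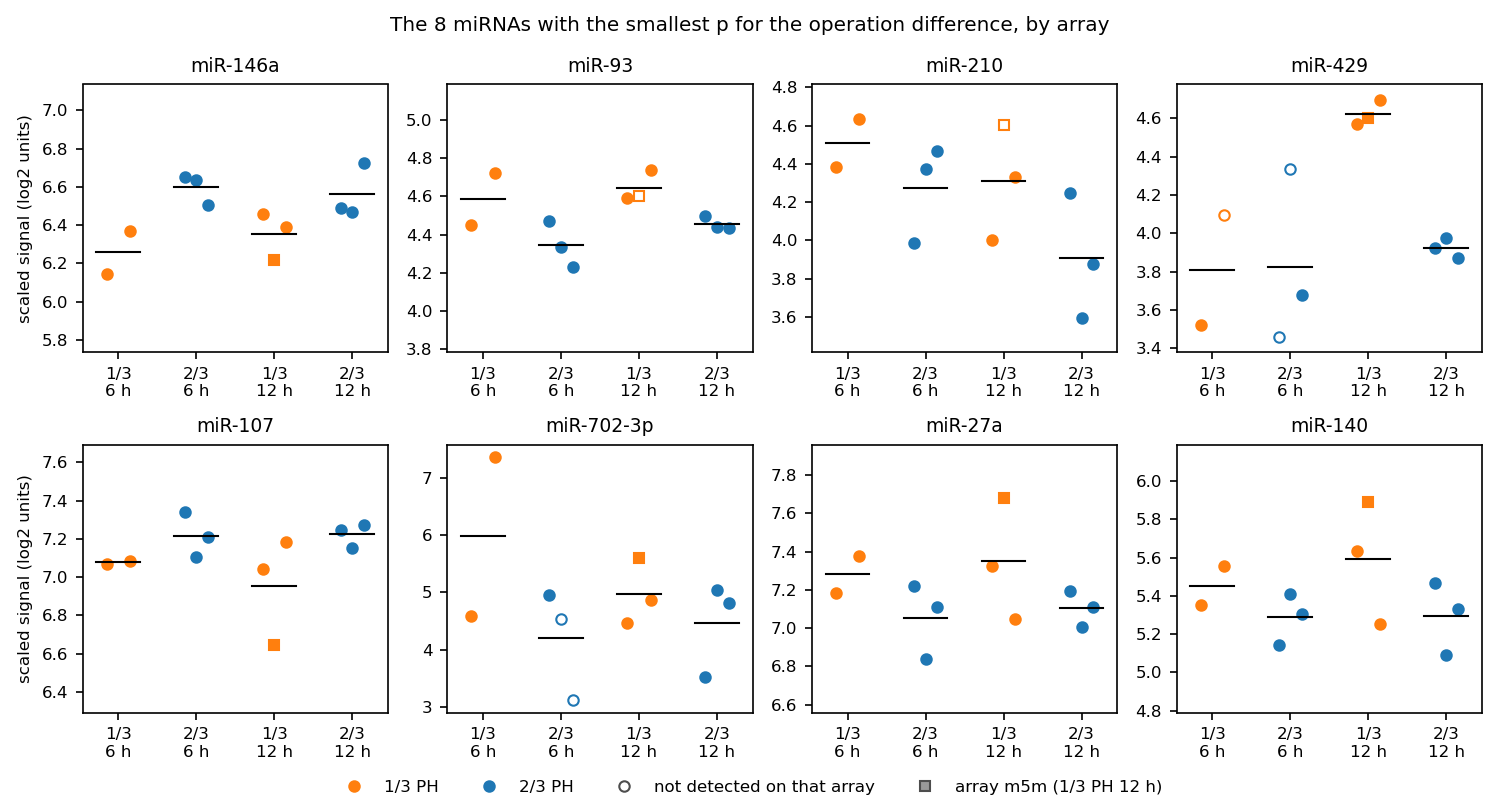
The 8 miRNAs with the smallest p for the operation difference. The y axis is the scaled log2 signal on each array, the x axis the operation and hour, black lines are group means, open symbols mark arrays on which the miRNA was not detected, and squares mark the low-signal array m5m. miR-146a shows every 2/3 PH array above the 1/3 PH arrays of its time, whereas 1 array at 7.36 sets the mean of miR-702-3p at 6 hours.

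miR-193 was the only miRNA called for the operation difference under an alternative that kept the adjustment. With scan day as a fixed block its difference was -0.55 (SE 0.10, adjusted limma p of 0.0452), against -0.43 (SE 0.25, adjusted p of 0.976) without the block and -0.23 (adjusted p of 0.887) without m5m. Its log2 signal ran from 6.26 to 7.04 on the first scan day and reached 6.89, 8.01 and 7.30 on the 3 arrays of the later day. It was named after its values were seen.

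No member of the families that act on the cell cycle was called between the operations at these hours. None of the 3 tested members of the miR-106b~25 cluster was called, with a median difference of -0.09 beside -0.02 over all 124: miR-25 had 0.07 (SE 0.15), miR-106b -0.09 (SE 0.15) and miR-93 the -0.21 above. m5m held the lowest value of miR-25, 6.02 against 6.49 to 6.79 on the other arrays, and without it miR-25 had -0.07 (SE 0.07), all 3 estimates were lower after 2/3 PH and their median was -0.22, beside -0.05 over all 124. Of the cluster from miR-17 to miR-92a and its paralogues, which promote cell cycle entry, 6 were tested and 0 called, 5 with lower estimates, and the median was -0.11, or -0.16 without m5m. miR-92a had 0.00 (SE 0.14), miR-19b -0.12 (SE 0.16) and miR-20a -0.08 (SE 0.22). Without m5m the miR-20a difference was -0.22, that of miR-106b -0.23 and that of miR-19b -0.25, the latter pair with unadjusted limma p of 0.0337 and 0.0467 and adjusted p of 0.742 and 0.881.

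Families that slow the cell cycle had no call either. The 5 tested members of the family of miR-15 and miR-16 had a median of -0.02, with miR-16 at -0.03 (SE 0.22) and miR-15b at -0.01 (SE 0.11). m5m held the lowest value of miR-16, 8.68 against 9.09 to 9.86 on the others, and without it miR-16 had -0.23 (SE 0.13), all 5 estimates were lower and the median was -0.14. All 8 tested members of the let-7 and miR-98 family, which restrain RAS and MYC and are abundant in differentiated liver, lay between -0.08 and 0.06 with a median of 0.02, or -0.02 without m5m. miR-34a, a target of p53 and the only miR-34 family member detected, had -0.19 (SE 0.16), and without m5m -0.31 (unadjusted limma p of 0.0269, adjusted p of 0.742). None of these was called, and every interval of the let-7 family and of the miR-15 and miR-16 family lay within 2-fold.

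The miRNAs tied to stress, hypoxia or early regeneration did not move together. Of 6 tested, 4 had higher and 2 lower estimates, the median was 0.05, or 0.01 without m5m, and 0 were called. miR-21, which rises in injured and regenerating liver in many settings, had a log2 signal of 12.29 and 12.42 against 12.28, 12.31 and 12.22 at 6 hours, and of 11.95, 12.45 and 12.10 against 12.28, 11.46 and 11.97 at 12 hours. Its operations overlapped at both times, and the estimate was -0.18 (SE 0.15), or -0.10 without m5m. miR-26a, which restrains cyclins, had 0.08 (SE 0.10), miR-23b 0.06 (SE 0.11) and miR-26b 0.04 (SE 0.09).

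The miRNAs with the highest signals, miR-21 among them, were not called. miR-122 ran from 15.17 to 15.42 on the 11 arrays, and its operation difference was 0.01 (SE 0.08, 95% interval -0.18 to 0.20). For let-7a and let-7f the differences were 0.04 (SE 0.08) and 0.06 (SE 0.09). miR-22 had -0.18 (SE 0.11), or -0.10 without m5m. The 8 hepatocyte-enriched miRNAs had a median of -0.02, 4 with higher and 4 with lower estimates and 0 called, and without m5m the median was -0.06. Among them miR-192 had 0.01 (SE 0.08) and miR-194 -0.05 (SE 0.10).

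Families that act on matrix and differentiation had no call either. The miR-29 family, repressors of collagen genes, had a median of -0.10 over 3 members. Its member miR-29a stood at 8.65 on m5m against 9.71 to 10.20 on the other 10 arrays, so that its difference was 0.09 (SE 0.23) with m5m and -0.14 without it. miR-29c had -0.10 (SE 0.21) and miR-29b -0.18 (SE 0.15). Without m5m all 3 were lower after 2/3 PH with a median of -0.25, and miR-29c had -0.30 (unadjusted limma p of 0.0302, adjusted p of 0.742). The 7 members of the miR-30 family had a median of -0.10, 2 with higher and 5 with lower estimates, and one of -0.02 without m5m. miR-30a had 0.04 (SE 0.10), miR-30b-5p -0.04 (SE 0.15) and miR-30c -0.15 (SE 0.14), and the last was -0.02 without m5m, which held its highest value.

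Markers of other cell types were measured beside these results. Of 6 leukocyte and macrophage miRNAs on the array 4 were detected and tested, miR-146a among them, and their median difference was 0.05, or 0.09 without m5m. Their summed signal ran from 198 to 264 units after 1/3 PH and from 192 to 255 after 2/3 PH, so the operations overlapped, and miR-223 of neutrophils and macrophages had -0.28 (SE 0.18), or -0.15 without m5m. miR-142-3p, found across blood cells, had -0.13 (SE 0.22), and miR-150 of lymphocytes had 0.22 (SE 0.14), while miR-142-5p and miR-146b were not detected on any of the 11 arrays. Of 7 mesenchymal and endothelial miRNAs 5 were tested, with a median of 0.06, or 0.00 without m5m. miR-126 of the endothelium had 0.09 (SE 0.15), and -0.05 (SE 0.07) without m5m, which held its lowest value, 8.46 against 9.03 to 9.27. miR-143, of smooth muscle and stellate cells, had 0.07 (SE 0.09). The parts of these cells in the miR-146a difference were not tested.

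At 6 hours alone, limma called 0 of 124 miRNAs (0%), 2 (1.61%) had an unadjusted p under 0.05 (5 of 132, 3.79%, without m5m), and 25 (20.2%) lay outside the fold limits, 8 above and 17 below. The 2 were miR-146a, at 0.34 (SE 0.15), and miR-451, a red cell miRNA. miR-451 had a log2 signal of 7.63 and 6.66 on the 1/3 PH arrays against 5.56, 5.96 and 5.75 on the 2/3 PH arrays, a difference of -1.39 (SE 0.44, unadjusted limma p of 0.0106, adjusted p of 0.968). At 12 hours it lay at 6.61, 6.20 and 5.98 against 5.87, 7.46 and 6.74, and the operations overlapped with a difference of 0.43 (SE 0.39). miR-451 was the only detected member of the erythroid list, and miR-144 from the same transcript was not detected on any of the 11 arrays.

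At 12 hours alone, 0 of 124 (0%) were called, 4 (3.23%) had an unadjusted p under 0.05, all lower after 2/3 PH (miR-200b, miR-429, miR-872 and miR-30e*), and 32 (25.8%) lay outside the fold limits. Without m5m 0 of 132 were called, 4 (3.03%) were under 0.05 unadjusted, and 25 of the same 124 (20.2%) lay outside the limits. The leader was miR-200b of the biliary and epithelial miR-200 family, with 6.04, 6.57 and 6.13 after 1/3 PH against 5.62, 5.51 and 5.45 after 2/3 PH, a difference of -0.72 (SE 0.18, unadjusted limma p of 0.00284, adjusted p of 0.352). miR-429 from the same cluster had 4.57, 4.60 and 4.70 against 3.98, 3.87 and 3.92, the 4.60 being the floor of m5m, a difference of -0.70 (SE 0.23, adjusted limma p of 0.784). Neither miRNA overlapped between the operations at 12 hours, and without m5m the differences were -0.56 and -0.71, with an adjusted limma p of 0.909 for both.

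The 3 tested members of the biliary and epithelial list all had lower estimates over both times, with a median of -0.32, or -0.20 without m5m, and 0 called. Their summed signal was 104.95 to 143.38 units on the 1/3 PH arrays at 12 hours and 72.39 to 77.12 on the 2/3 PH arrays, while at 6 hours it was 52.3 to 64.7 and 51.2 to 80.7. The upper end 143.38 and both ends of either range at 6 hours belong to arrays on which miR-200a and miR-429 both stood at the floor. The floors thus set part of these sums. The other members, miR-200c and miR-141, were not detected on any of the 11 arrays. miR-200a was not detected on 5 of the 11 arrays, so its -0.32 (SE 0.21) is partly set by the floors too.

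Whether the operation difference itself changed between 6 and 12 hours was tested as an interaction. limma called 0 of 124 (0%), and 3 (2.42%) had an unadjusted p under 0.05: miR-200b at -0.99 (SE 0.27), miR-872 at -0.67 (SE 0.20) and miR-451 at 1.82 (SE 0.59), each with an adjusted p of 0.503. Without m5m there were again 0 calls and 3 under 0.05 (2.27% of 132), with miR-200b at -0.83, miR-872 at -0.59 and miR-451 at 1.78. These miRNAs were named after their values were seen.

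The miR-872 signal lay near the floor. At 6 hours it was 3.97 and 4.10 after 1/3 PH against 4.38, 4.49 and 4.18 after 2/3 PH, and at 12 hours it was 4.41, 4.60 and 4.29 against 4.06, 4.15 and 4.02. The operations did not overlap at either hour and their order turned between them. The value 4.60 is the floor of m5m, where miR-872 was not detected, and 4.10 is the floor of its array.

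Between 12 and 6 hours, limma called 2 of 124 miRNAs (1.61%), both lower at 12 hours, and 14 (11.3%) had an unadjusted p under 0.05. miR-378, which acts in mitochondrial and lipid metabolism together with its host gene, fell by 0.97 on the log2 scale (SE 0.15, adjusted p of 0.0069). miR-151, which lies in the focal adhesion kinase gene, fell by 0.63 on the log2 scale (SE 0.11, adjusted p of 0.0153).

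At 6 hours miR-378 had a log2 signal of 7.18 and 7.57 after 1/3 PH and 7.58, 7.61 and 7.57 after 2/3 PH. At 12 hours it stood at 6.33, 6.70 and 6.28 after 1/3 PH and at 6.96, 6.17 and 6.63 after 2/3 PH. All 6 arrays at 12 hours were below all 5 at 6 hours, and the operations overlapped at 12 hours. The operation difference of miR-378 was 0.18 (SE 0.15), or 0.25 without m5m, and its interaction -0.06 (SE 0.32). In normal liver it was 7.34 ± 0.15 (SD, n = 3), near the arrays at 6 hours.

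miR-378*, the other arm of the same hairpin, also had lower values at 12 hours. It lay between 4.61 and 5.18 on the 5 arrays at 6 hours and between 3.70 and 4.60 at 12 hours, the upper value being the floor of m5m, where it was not detected. Its difference was -0.83 (SE 0.20, adjusted limma p of 0.0594), and without m5m it was -0.93 with an adjusted limma p of 0.0173.

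miR-151 stood at 7.17 and 7.28 after 1/3 PH and at 7.25, 7.35 and 7.27 after 2/3 PH at 6 hours, against 6.53, 6.99 and 6.47 and 6.80, 6.55 and 6.50 at 12 hours. The operation difference was 0.00 (SE 0.12), or 0.09 without m5m. Without m5m, limma called 5 of 132 miRNAs (3.79%) between the hours, all lower at 12 hours: miR-378, miR-151, miR-378*, miR-195 and miR-497. miR-195 fell by 0.44 on the log2 scale (adjusted p of 0.0142) and miR-497 by 0.32 (adjusted p of 0.0276) in that fit, against -0.54 and -0.40 with m5m, where neither passed (adjusted limma p of 0.066 and 0.152). For both miRNAs m5m held the lowest of the 11 values, 7.63 for miR-195 against 8.07 to 8.79 on the others and 7.28 for miR-497 against 7.73 to 8.22. Within the 8 arrays of the first scan day 4 of 133 (3.01%) were called, the same miRNAs without miR-497. Single arrays decided calls: miR-378 was not called without the second 1/3 PH array of 6 hours (-0.92, adjusted limma p of 0.0514), and miR-151 was not called without any 1 of 7 arrays (adjusted limma p of 0.0512 to 0.0897).

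**Figure D3:**
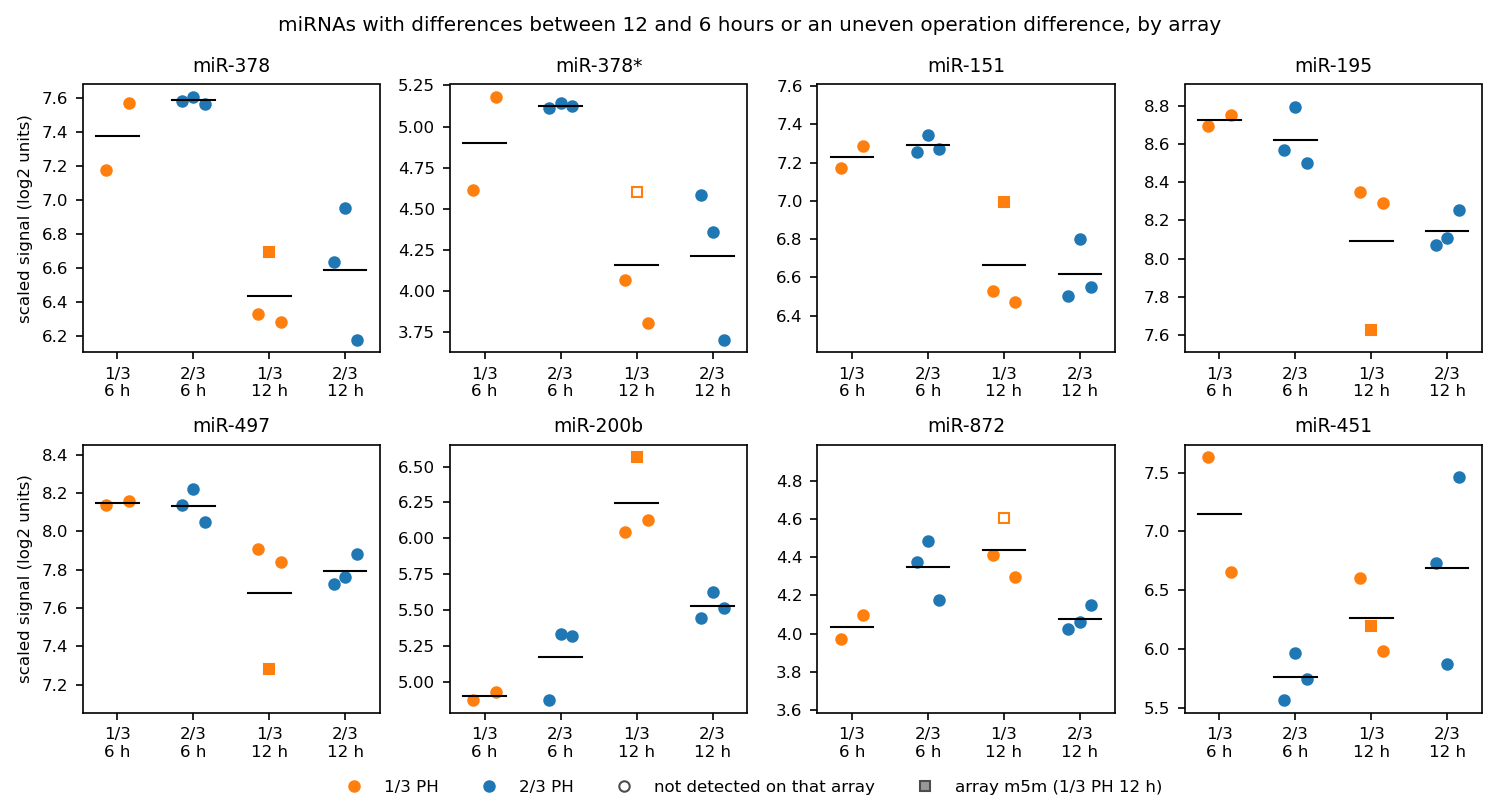
miRNAs that differed between 12 and 6 hours with all 11 arrays or without m5m (miR-378, miR-378*, miR-151, miR-195, miR-497) and those with the smallest p for the interaction (miR-200b, miR-872, miR-451). The y axis is the scaled log2 signal on each array, black lines are group means, open symbols mark arrays on which the miRNA was not detected, and squares mark m5m. All 12 h arrays of miR-378 lie between 6.17 and 6.96 and all 6 h arrays between 7.18 and 7.61, whichever the operation.

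In all, 8 miRNAs (6.45%) separated the hours the same way after both operations, 1 higher at 12 hours, miR-200b, and 7 lower. miR-200b had a difference of 0.79 (SE 0.20, adjusted limma p of 0.066). The hours were spread unevenly over the slides, since 1 slide held 5 of these arrays with 1 from 12 hours, another held 3 arrays of 12 hours only, and the remaining one held 3 arrays with 1 from 6 hours. With slide as a fixed block, limma called 0 of 124 (9 unadjusted, 7.26%), and miR-378 had a difference of -0.96 with an adjusted p of 0.219 and miR-151 one of -0.65 with the same adjusted p. Among the arrays of the first slide miR-378 stood at 6.33 at 12 hours against 7.18 to 7.61 at 6 hours, and among those of the last at 6.70 and 6.63 against 7.57.

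The same contrast was set beside its later values. In a fit of all 26 arrays over the same 124 miRNAs, limma called 3 (2.42%) at 24 hours, miR-93, miR-17-5p and miR-20b-5p, all higher after 2/3 PH and all of the AAAGUGC seed. At 36 hours it called 20 (16.1%; 33 unadjusted, 26.6%), 14 higher and 6 lower. The estimate at 6 and 12 hours, with m5m, had the same sign for 9 of these 20 and for 0 of the 3 of 24 hours. Without m5m the early estimate of miR-17-5p was 0.02, the same sign as at 24 hours. At 24 and at 36 hours no slide held both operations, and at 36 hours no scan day did. Within either hour slide, and at 36 hours scan day, thus cannot be told apart from the operation. Across the hours, 1 slide held the 2/3 PH arrays of 24 hours and the 1/3 PH arrays of 36 hours. The normal livers were spread over every scan day.

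Whether the difference between the operations changed was tested as the mean difference at 24 and 36 hours minus that at 6 and 12 hours, a comparison chosen after the data were seen. limma called 12 of 124 (9.68%; 27 unadjusted, 21.8%), 10 higher and 2 lower. The contrast rests on the same late slides. An equal shift of all arrays on the slide shared by 2/3 PH at 24 hours and 1/3 PH at 36 hours would cancel in it. With 24 hours alone in place of both late times 1 miRNA was called. The largest was miR-93, at 1.23 (SE 0.13, adjusted p of 1.47e-06). Its log2 signal was 5.43 ± 0.23 (SD, n = 3) after 2/3 PH at 24 hours and 5.61 ± 0.12 (SD, n = 3) at 36 hours, against 4.56 ± 0.16 and 4.45 ± 0.16 after 1/3 PH and 4.46 ± 0.15 in normal liver (SD, n = 3 each).

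Of the 12, 5 had the AAAGUGC seed, seeds having been read only for the named miRNAs: beside miR-93 they were miR-17-5p at 1.08 (SE 0.26), miR-20b-5p at 0.87 (SE 0.20), miR-20a at 0.85 (SE 0.26) and miR-106b at 0.57 (SE 0.15). Their early estimates ran from -0.21 for miR-93 to -0.08 for miR-20a, and without m5m that of miR-17-5p was 0.02. On 2 of the 11 early arrays miR-17-5p was not detected, and on others it stood at the floor. The floors thus set part of its early estimate and of the 1.08. The sequences of these 5 miRNAs share all but a few bases, so the 5 are not independent, and binding of 1 to the probes of another was not tested. miR-34a, which slows the cell cycle, had 0.92 (SE 0.22), with an operation difference of 0.30 at 24 hours (adjusted p of 0.701 in limma) and 1.15 at 36 hours. miR-26a, a brake on cyclins, had -0.52 (SE 0.11). Without m5m 11 of the 12 were called, and miR-7a was not (adjusted limma p of 0.0671).

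**Figure D4:**
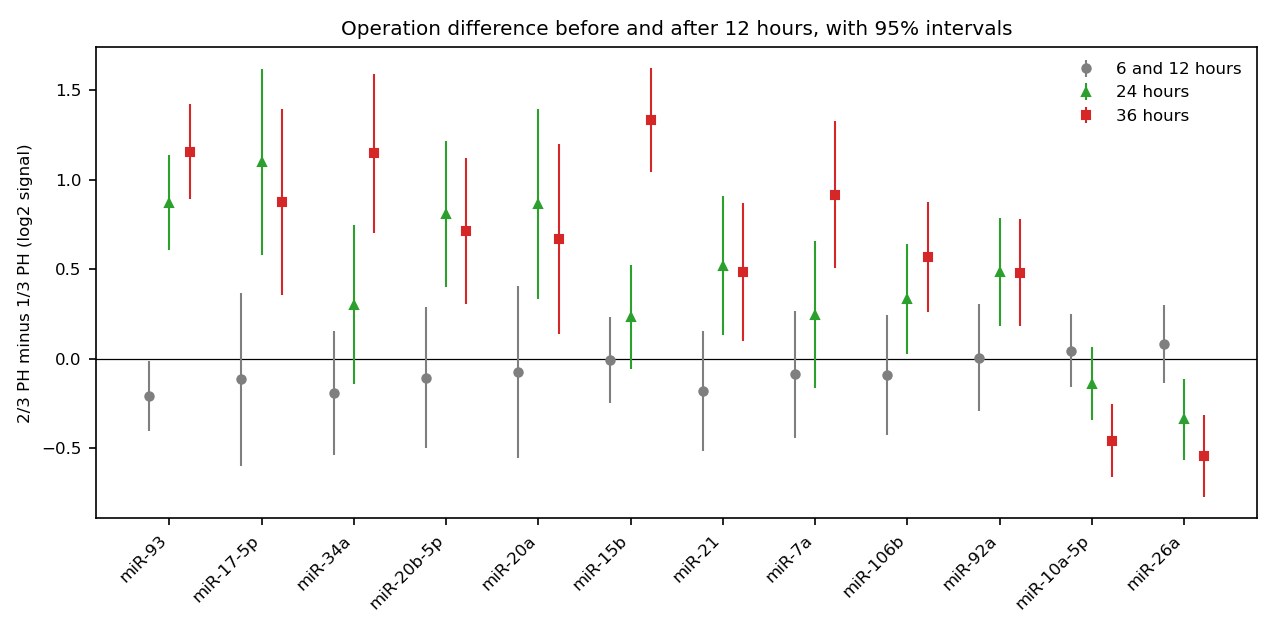
Operation difference at 6 and 12 hours together, at 24 hours and at 36 hours for the 12 miRNAs called for a change of that difference. The y axis is the log2 signal of 2/3 PH minus 1/3 PH, and bars are 95% intervals from limma. The early points lie between -0.21 and 0.08, and miR-93 reaches 0.87 at 24 hours and 1.16 at 36 hours.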

How the data were processed

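Per the file headers, the authors scanned single-colour Agilent rat miRNA arrays, 1 per sample, and extracted background-subtracted, detrended fluorescence intensity per spot with Agilent Feature Extraction 10.7.3.1, without normalization across arrays. A second deposited table holds log2 values that the authors had normalized by a method not given in the sources used here, which was an alternative. Groups follow the titles.

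Processed spot intensity was averaged per probe (1644 probes) without spots marked as non-uniform or population outliers, and probes were summed per miRNA. Arrays were scaled to the 75th percentile of the 109 probes that stood well above background throughout the 26 arrays, factors being centred so that values stay in signal units. Values below the dimmest probe still well above an array's background were raised to that level, and log2 was taken. Probes differ in brightness, so signal only chose which miRNAs were named and no level was set against that of another miRNA.

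limma 3.58.1 (R 4.3.3; lmFit, eBayes) fitted operation with time as covariate on the 11 arrays (residual degrees of freedom 8, prior 2.44), and 4 group means for single times and the interaction (7). Benjamini-Hochberg adjustment ran over all tested miRNAs at 0.05, and 95% intervals are moderated. Values at 24 and 36 hours came from a fit of 26 arrays and 9 groups. No count depth exists for arrays: their number limits the precision. The p-values rest on the spread between arrays of a group, in which differences between rats, arrays, slides and scan days are mixed.

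Named miRNAs are called miRNAs, the 8 with the smallest p for the operation difference, those whose operations do not overlap the same way at both times, the 5 brightest, and up to 4 brightest members of each list; none was detected on every array of 1 operation and on at most 1 of the other. Others are marked where named. The members and lists were chosen with earlier results of these data known. Some listed miRNAs were not analysed here. The fit was tested on simulated data with known answers. Alternatives covered single arrays, slide, scan day, array weights, scaling, background, probe summary, floor, filter and test.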

Additional observations from a re-analysis of the deposited data

Results flagged for a closer look

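For 12 miRNAs the mean difference between 2/3 PH and 1/3 PH at the late hours (24 and 36) differed from that at the early hours (6 and 12). The test was limma with Benjamini-Hochberg adjustment over 124 miRNAs, and the comparison was chosen after the data were seen. In log2 units the late minus early difference was 1.23 for miR-93, 1.08 for miR-17-5p, 0.92 for miR-34a, 0.87 for miR-20b-5p and 0.85 for miR-20a. It was 0.81 for miR-15b, 0.67 for miR-21, 0.65 for miR-7a, 0.57 for miR-106b and 0.48 for miR-92a. It was below 0 for miR-10a-5p (-0.35) and miR-26a (-0.52). The late hours were not alike for each: the operation difference of miR-15b was 0.23 at 24 hours and 1.33 at 36 hours, and that of miR-93 0.87 and 1.16. At neither hour alone did miR-21 pass (adjusted limma p of 0.156 and 0.0921). Without m5m miR-7a was not called (adjusted limma p of 0.0671). With slide as a random block all 12 were called again. No slide held both operations at 24 or at 36 hours, so that fit cannot tell slide from operation within either hour. The 2/3 PH arrays of 24 hours and the 1/3 PH arrays of 36 hours shared a slide. An equal shift of that slide would cancel in the late mean. Groups of 2 or 3 arrays are too small for a test of single outlying arrays.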

How the results depend on the processing

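The operation difference kept 0 calls under every alternative but scan day as a fixed block, which gave 1, and an unadjusted threshold, which gave 2. Leaving out each array gave 0 to 0 calls. With the 75th percentile over all probes the interaction had 1 call and the difference at 6 hours 2, but that scaling moved the median of all miRNAs at 6 hours by -1.30. Unadjusted, the interaction had 3, the difference at 6 hours 2 and at 12 hours 4. Without scaling the median operation difference was 0.17 and with the deposited log2 values 0.15, and the count bounded within 2-fold fell from 111 to 42 and 73, and to 0 with the percentile over all probes. The deposited values reversed miR-93 (1.05) and miR-210 (1.12), and the cause was not tested.

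The 2 calls between 12 and 6 hours were the least stable. Leaving out single arrays gave 0 to 5. There were 6 calls with all 26 arrays, 8 with array weights, 7 with the software's total gene signal, 5 with a floor of 1 unit, 4 each with scan day as a block, the percentile over all probes, miRNAs detected on all 11 arrays and the first scan day only (the last chosen after seeing the data), 14 unadjusted, and 0 with slide as a fixed block, no scaling, normexp or the deposited values. miR-378 lost its call without the second 1/3 PH 6 h array (adjusted limma p of 0.0514), which leaves 1 array there, assumed to vary like the others. miR-151 lost it without either 1/3 PH 6 h array, any 2/3 PH 6 h array, or 2 of the 2/3 PH 12 h arrays in turn (adjusted limma p of 0.0512 to 0.0897). The late minus early count was 1 at 24 hours alone. No paired analysis was possible because the labels of the operated groups carry no shared replicate numbers.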
